A study of Mus musculus with 26 samples.

Results

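Mouse KH2 embryonic stem cells carrying the NAP1L1 alpha knock-out (alphaKO) were compared with KH2 cells carrying the NAP1L1 knock-out (fullKO) on day 2 of retinoic acid-induced differentiation. The comparison used 3 alphaKO and 3 fullKO libraries, 6 of the 26 bulk RNA-seq libraries of the series, chosen by genotype and day as the labels give them. The other libraries were wild-type (WT) KH2 cells on days 0, 2 and 4 and both knockouts on days 0 and 4, with 3 libraries a group and 2 for fullKO on day 0. All groups shared the KH2 line, and the day 2 groups were all exposed to retinoic acid. The library names of each knockout carry a single prefix and the design text counts a pair of knockout lines, so genotype and cell line cannot be told apart. The labels do not say whether libraries of a group came from separate cultures, and the p-values measure only the spread between these libraries. Total gene counts ran from 17400607 to 18478419 in the alphaKO libraries, from 18392899 to 19843721 in the fullKO libraries and from 14386522 to 15589729 in the WT libraries of day 2.

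NAP1L1 is a nucleosome assembly protein that binds histones H2A and H2B and hands them to and from chromatin. Retinoic acid enters the cell, is carried to the nucleus by cellular retinoic acid-binding proteins and is destroyed by Cyp26 enzymes. In the nucleus it activates retinoic acid receptors, which switch on Hox genes and other differentiation genes. Embryonic stem cells that respond to it shut down Nanog, Esrrb, Klf2 and other genes of the pluripotent state. The direct contrast asks how cells labelled as lacking the alpha form differ from cells labelled as NAP1L1 knock-out while both leave that state.

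Expression is given below as CPM, the gene's count scaled to an equal library size after adjustment by the trimmed mean of M-values. Fold changes are log2 of alphaKO over fullKO, so that a positive value means higher in alphaKO, and each is followed by its SE after ±. A gene is said to be called, or to be higher or lower, where edgeR's quasi-likelihood test gave a Benjamini-Hochberg adjusted p under 0.05.

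Nap1l1 itself (chromosome 10, 111473223 to 111498150, GRCm38) measured 609, 628 and 619 CPM in the alphaKO libraries, against 369, 364 and 367 CPM in the fullKO libraries and 857, 862 and 856 CPM in the WT libraries. The 3 groups did not overlap, and both knockouts lay below WT. The alphaKO cells were higher than the fullKO cells by 0.75 ± 0.038 on the log2 scale (adjusted p = 2.05e-20). A count per gene sums all isoforms, so it does not show which form was left in either knockout. Nap1l1 RNA was still counted in fullKO, and protein was not measured here. Among the relatives of Nap1l1, Tspyl1 was lower in alphaKO by a log2 fold change of -0.23 ± 0.057 (adjusted p = 0.00186). Nap1l4, the other broadly expressed NAP1 protein, was higher by 0.13 ± 0.04 (adjusted p = 0.0169). That call was lost without alphaKO replicate 1 (adjusted p = 0.0749) and without fullKO replicate 1 (adjusted p = 0.0571). The other 8 members of the family list did not pass the test, namely Nap1l2, Nap1l3, Nap1l5, Set, Tspyl2, Tspyl3, Tspyl4 and Tspyl5. With upper-quartile scaling Set passed it as lower (-0.10, adjusted p = 0.0154) and Nap1l4 did not (adjusted p = 0.0746), and without fullKO replicate 2 Tspyl2 passed it as higher (0.19, adjusted p = 0.0433).

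Across the transcriptome 18412 genes were tested and 4655 were called, of which 2396 were higher in alphaKO (13% of the genes tested) and 2259 were lower (12.3%). With upper-quartile scaling the balance turned, with 2036 genes higher and 2699 lower. Most differences were small, with a median size of 0.40 on the log2 scale among the called genes. At a threshold of at least 2-fold, 284 genes were higher (1.54%) and 570 were lower (3.1%). The libraries of the groups did not overlap for 7260 genes (39.4% of those tested) and for 4506 of the called genes (96.8%). The median log2 fold change of all genes tested was -0.008. Counts of list members below are to be read beside these shares.

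**Figure D1:**
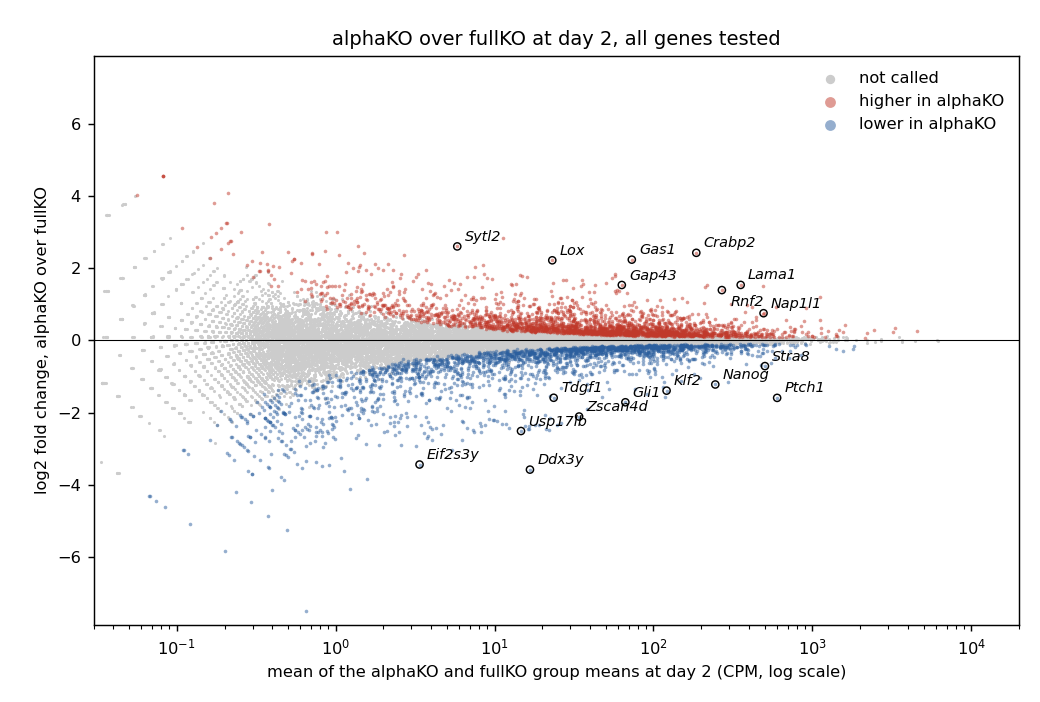
Log2 fold change of alphaKO over fullKO at day 2 (vertical axis) against mean CPM (log axis) for the 18412 genes tested, with called genes coloured and some named genes marked. The 2396 genes higher in alphaKO and the 2259 lower genes flank the genes not called, with Crabp2 and Gas1 far above the bulk and the Zscan4 family and Ddx3y far below it on the log2 scale.

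Crabp2, the cellular retinoic acid-binding protein that delivers retinoic acid to its receptors, had the smallest p of the table. It measured 304, 335 and 301 CPM in the alphaKO libraries, against 61.3, 58.9 and 54.8 CPM in the fullKO libraries and 250, 258 and 271 CPM in the WT libraries. The alphaKO libraries thus lay near the WT libraries and far above the fullKO libraries, by 2.43 ± 0.054 on the log2 scale (adjusted p = 1.54e-33). Gas1, a membrane co-receptor for hedgehog ligands, measured 126, 124 and 112 CPM in alphaKO, against 27.3, 23.7 and 25.8 CPM in fullKO, a log2 fold change of 2.24 ± 0.082 (adjusted p = 2.08e-25). It averaged 90.8 CPM in WT.

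Among the 12 largest rises with at least 5 CPM in a group were also Sytl2 (2.60 ± 0.18), Nr4a2 (2.05 ± 0.23), Cplx2 (1.82 ± 0.13) and Ednrb (1.79 ± 0.17). Sytl2 and Cplx2 act in vesicle release, Nr4a2 is an orphan nuclear receptor and Ednrb is an endothelin receptor. Lox, Col8a1, Tnc, Cav1 and Ankrd1, genes of matrix, caveolae and the stretched cytoskeleton, made up another group, with log2 fold changes of 1.83 to 2.22. These 5 genes were highest in WT, where Lox averaged 164 CPM, and among the alphaKO libraries each was highest in replicate 3. Srgn, a secretory granule proteoglycan (1.84 ± 0.16), was also among the 12.

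Leaving out predicted genes and entries annotated as pseudogenes, such as Zscan4a (-2.455 ± 0.13), the 12 largest falls included 2 genes of chromosome Y, Ddx3y and Eif2s3y. The others were Pof1b, the thyroid and pharynx factor Foxe1, Trim67, Aldh3b2, the oocyte gene Khdc3, 3 genes of the Usp17l family and the Zscan4 copies annotated as Zscan4-ps1 and Zscan4-ps3. Their log2 fold changes ran from -3.57 for Ddx3y to -2.38 for Khdc3. Trim67, a brain ubiquitin ligase, measured 7.65, 7.28 and 5.29 CPM in alphaKO, against 42.8, 36.7 and 32.5 CPM in fullKO.

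**Figure D2:**
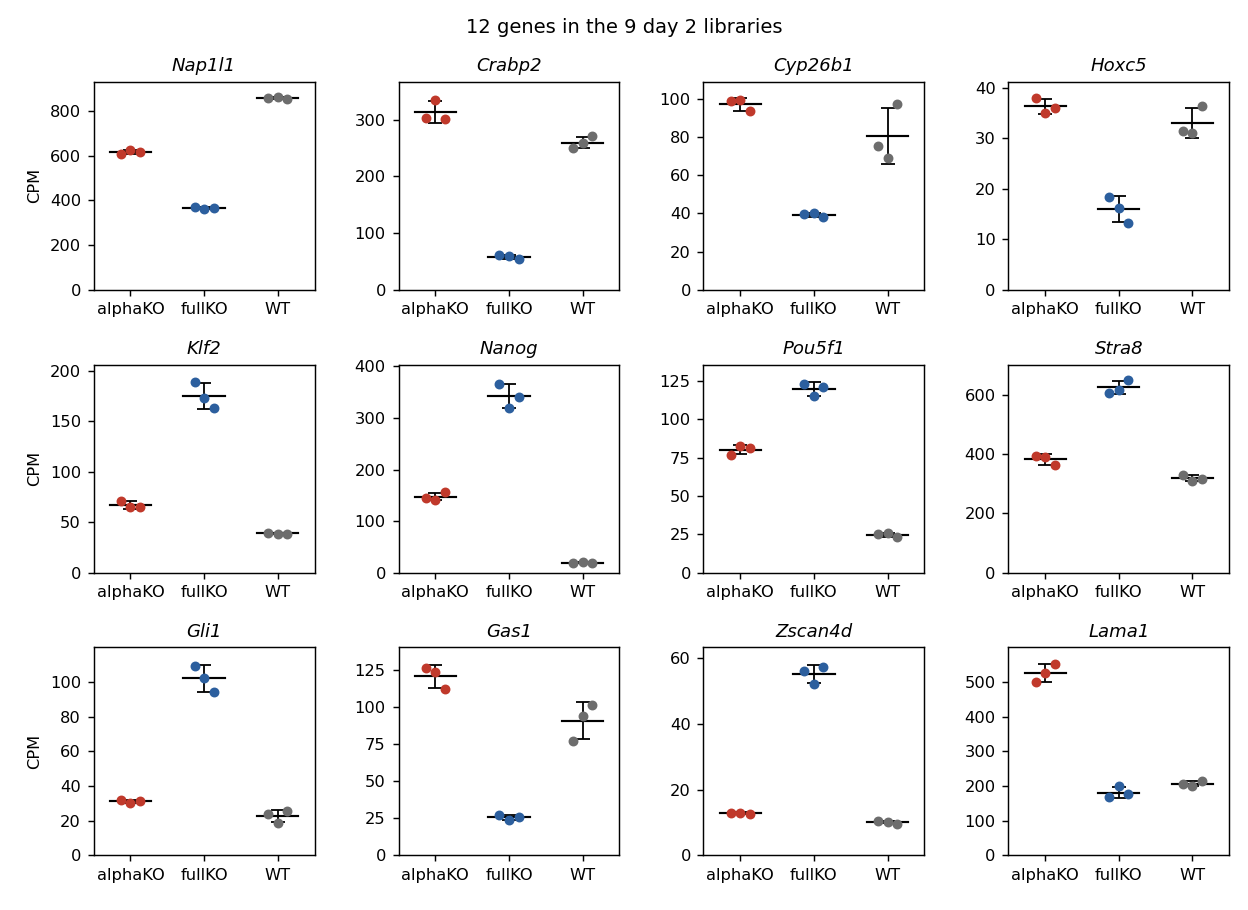
CPM of 12 genes in each day 2 library, with alphaKO left, fullKO in the middle and WT right; points are libraries, the line is the mean and the bar the SD of 3 libraries. Crabp2, Cyp26b1 and Hoxc5 lay near WT in alphaKO and low in fullKO, and Nanog, Klf2, Gli1 and Zscan4d were high in fullKO, with the alphaKO libraries between fullKO and WT.

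Genes of the pluripotent state were mostly lower in alphaKO than in fullKO. Of 16 naive pluripotency genes 12 were lower and 3 higher, with a median log2 fold change of -0.86. Nanog, a homeodomain factor that holds cells in the naive state, measured 144, 142 and 156 CPM in the alphaKO libraries, against 367, 320 and 341 CPM in the fullKO libraries and 18.6, 20.9 and 18.99 CPM in the WT libraries. All 3 groups were separate and alphaKO stood between the others. The log2 fold change was -1.22 ± 0.049 (adjusted p = 3.51e-24).

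The same order held for Klf2, a Krüppel-like activator of the naive network. It measured 71.2, 64.8 and 64.6 CPM in alphaKO, against 189, 173 and 163 CPM in fullKO, and averaged 38.8 CPM in WT. Esrrb, an orphan nuclear receptor of the same network, measured 71.8, 72.8 and 75.03 CPM in alphaKO, against 166, 157 and 161 CPM in fullKO, and averaged 23.6 CPM in WT. The Akt co-activator Tcl1 also fell (-1.28 ± 0.13). The 3 naive genes that were higher in alphaKO were Klf4 (0.25 ± 0.07), Tbx3 (0.41 ± 0.049) and Klf5 (0.45 ± 0.058). Klf5 lies on chromosome 14, where 27.5% of the genes tested were higher. Tfcp2l1 was lower by -0.64 ± 0.044, but lies in a stretch of chromosome 1 where most genes were lower, described below.

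Of 13 general pluripotency genes 12 were lower and 1, the let-7 inhibitor Lin28b, was higher, with a median of -0.42. Tdgf1, the co-receptor for Nodal, moved most. It measured 10.6, 11.8 and 12.9 CPM in alphaKO, against 38.1, 31.99 and 35.9 CPM in fullKO, a log2 fold change of -1.59 ± 0.074 (adjusted p = 1.01e-21). Pou5f1, the POU factor required for pluripotency, measured 76.7, 82.7 and 81.3 CPM in alphaKO, against 123, 115 and 121 CPM in fullKO, and averaged 24.7 CPM in WT. Utf1 and Dppa2 were lower by -0.86 ± 0.071 and -0.52 ± 0.055. Of 12 formative and primed epiblast genes 7 were lower and 3 were higher. Fgf5 (-1.32 ± 0.24), Sox3 (-0.94 ± 0.13), Foxd3 (-0.92 ± 0.18) and the methyltransferase cofactor Dnmt3l (-0.81 ± 0.061) were among the lower ones.

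In bulk RNA, fewer cells of a type and less RNA per cell cannot be told apart, so these values do not show whether fewer alphaKO cells kept the pluripotent state or all cells held less of these transcripts.

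Genes that handle retinoic acid were mostly higher in alphaKO. Of 22 genes of retinoic acid metabolism, its receptors and its targets, 12 were higher and 3 were lower, with a median of 0.26. Changes of at least 2-fold were seen for 5 of the higher and 1 of the lower genes. Beside Crabp2, the retinoic acid-degrading enzyme Cyp26b1 measured 98.7, 99.6 and 93.4 CPM in alphaKO, against 39.6, 40.03 and 38.1 CPM in fullKO and 75.1, 69.2 and 97.4 CPM in WT. The alphaKO and WT libraries overlapped and the fullKO libraries lay below both. The COUP-TF nuclear receptor genes Nr2f2 (1.55 ± 0.096) and Nr2f1 (1.62 ± 0.23) were higher as well, as was the retinol transporter gene Stra6 (0.70 ± 0.063). The receptor gene Rarg was lower by less than 2-fold (-0.60 ± 0.06), whereas Rara, Rxra and Rxrb did not pass the test, with values from -0.14 to -0.05.

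Members of this list with a receptor element of the classical kind in the promoter were looked for. In the 300 bases around the start site (250 before to 50 after), RefSeq promoters of GRCm38.p6 were searched on both strands for a direct repeat with 5 bases between half-sites. A half-site was AGGTCA as the consensus, GGTTCA or, as a further variant, AGTTCA, with GGGTCA also accepted. The repeat stood in 32 of 32851 promoters (0.0974%). For the list it stood in a promoter of 2 of the 18 genes found (11.1%), Cyp26a1 and Rarb. The first share counts promoters and the second counts genes. The list was also drawn up to hold retinoic acid targets, so the shares cannot be compared as such. The matching promoters of Cyp26a1 and Rarb are printed to show where the repeat lies, with the half-sites in capitals. Each line shows 80 bases, 5′ to 3′ on the gene's strand. A match describes the sequence and is no evidence of binding.
Cyp26a1 promoter, chr19:37697726-37697805 (+): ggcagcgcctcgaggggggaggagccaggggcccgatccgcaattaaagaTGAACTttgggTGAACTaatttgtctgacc
Rarb promoter, chr14:16575481-16575560 (-): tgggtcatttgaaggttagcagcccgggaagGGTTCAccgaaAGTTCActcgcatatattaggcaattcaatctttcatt

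Cyp26a1, another enzyme that degrades retinoic acid, measured 243, 257 and 258 CPM in alphaKO, against 206, 205 and 192 CPM in fullKO and 217, 220 and 253 CPM in WT. Its log2 fold change was 0.33 ± 0.058 (adjusted p = 1.64e-05). Rarb, a receptor that retinoic acid induces, measured 18.6, 20.3 and 20.1 CPM in alphaKO, against 16.3, 16.7 and 16.5 CPM in fullKO. Its log2 fold change was 0.25 ± 0.094 (adjusted p = 0.0432). The libraries did not overlap for either gene, but both differences were small beside those of Crabp2 and Cyp26b1.

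Hox genes, which give cells their position along the body axis, were higher in alphaKO in many cases. Of 15 anterior Hox genes (paralog groups 1 to 5) 11 were higher and 0 were lower, with a median of 0.71. Hoxc5 measured 38, 35.03 and 36.1 CPM in alphaKO, against 18.3, 16.3 and 13.2 CPM in fullKO and 31.5, 31.1 and 36.5 CPM in WT. The alphaKO libraries were thus near WT, at 1.19 ± 0.1 above fullKO on the log2 scale (adjusted p = 3.44e-13). Hoxc4, Hoxb3 and Hoxb4 were higher by 1.001 ± 0.1, 0.81 ± 0.14 and 0.77 ± 0.071.

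Of 23 posterior Hox genes 9 were higher and 2 were lower, with a median of 0.43. Hoxc6 (1.60 ± 0.15), Hoxc8 (1.35 ± 0.086) and Hoxb6 (1.08 ± 0.097) were the largest rises and Hoxd9 (-0.90 ± 0.17) the largest fall among called members. Hoxd genes were not among those that rose. The Hox cofactors Meis2 (0.61 ± 0.05) and Meis1 (0.49 ± 0.061) were also higher. The direct repeat above stood in promoters of 0 of 9 anterior and 0 of 13 posterior Hox genes found.

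**Figure D3:**
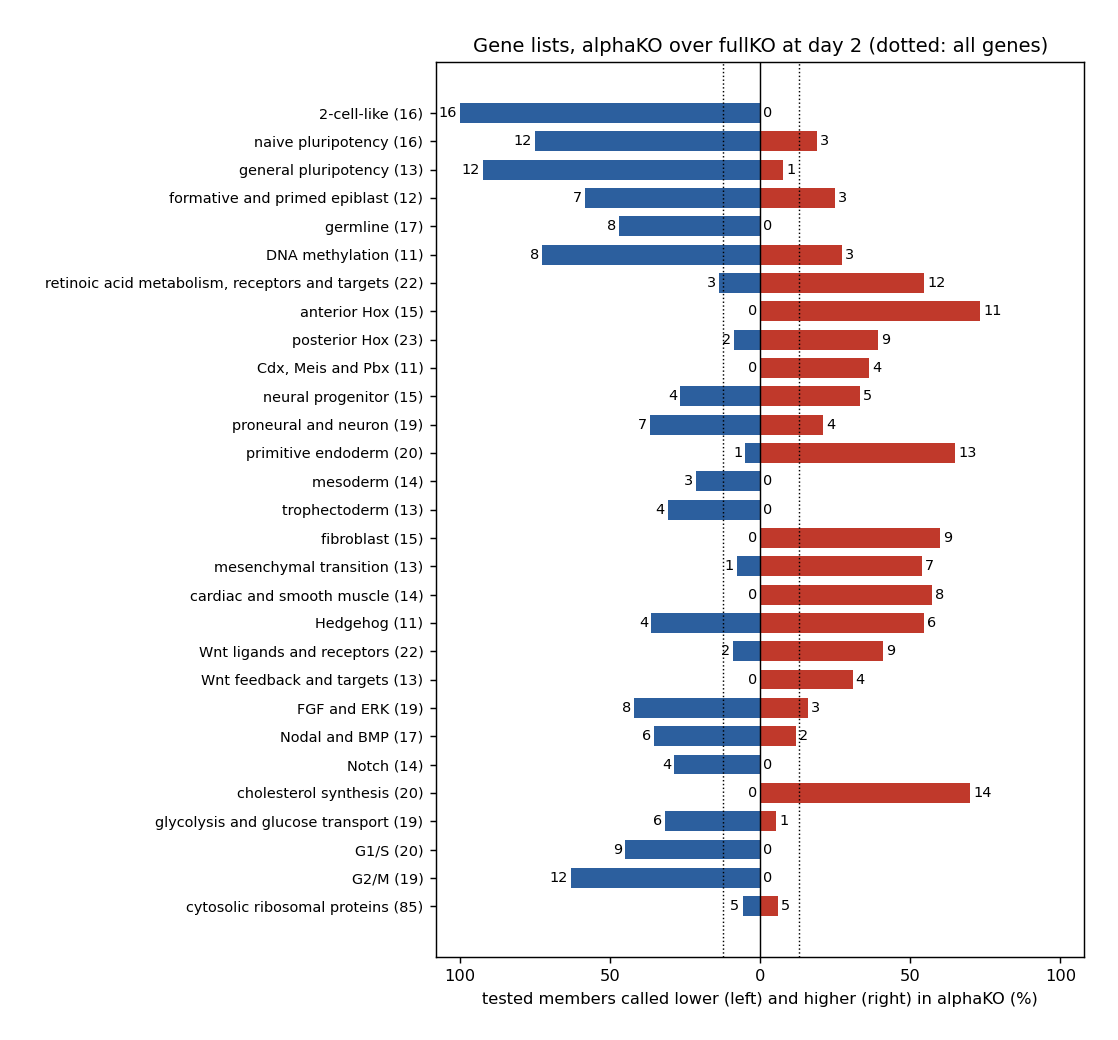
Share of tested members called lower (left) or higher (right) in alphaKO at day 2 for 29 gene lists; dotted lines mark the shares over all genes, 12.3% lower and 13% higher. All 16 genes of the 2-cell-like list were lower, most pluripotency genes were lower, and most anterior Hox, primitive endoderm and cholesterol synthesis genes were higher.

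Genes of the transient state that resembles the 2-cell embryo gave the most one-sided list. Zscan4 proteins mark that state in embryonic stem cells and act on telomeres there. All 16 members tested were lower in alphaKO, each by at least 2-fold, with a median of -2.35. Zscan4d measured 13.01, 12.9 and 12.6 CPM in the alphaKO libraries, against 56.0, 52.3 and 57.4 CPM in the fullKO libraries and 10.5, 10.3 and 9.68 CPM in the WT libraries. The fullKO libraries stood apart and the alphaKO libraries lay slightly above WT. The log2 fold change of alphaKO over fullKO was -2.10 ± 0.096 (adjusted p = 5.13e-22). Summed over the list, CPM ran from 59.0 to 64.0 in alphaKO, from 293 to 325 in fullKO and from 48.03 to 56.7 in WT.

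Members of the Zscan4 and Usp17l families are near copies, and how reads were divided among them is not stated, so values of single copies are uncertain. Their calls are for the same reason not independent of each other. The promoters show how close the copies are. The 80 bases from 4 of them (RefSeq, GRCm38.p6, on each gene's strand) are printed with the TATA box letters TATAAA in capitals. They were identical at 75 of 80 positions over all 4, and those of Zscan4c and Zscan4f at all 80.
Zscan4b promoter, chr7:10905062-10905141 (-): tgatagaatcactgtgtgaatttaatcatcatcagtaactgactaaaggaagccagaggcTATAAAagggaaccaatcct
Zscan4c promoter, chr7:11005631-11005710 (+): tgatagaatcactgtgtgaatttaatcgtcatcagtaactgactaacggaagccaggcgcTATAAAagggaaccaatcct
Zscan4d promoter, chr7:11166194-11166273 (-): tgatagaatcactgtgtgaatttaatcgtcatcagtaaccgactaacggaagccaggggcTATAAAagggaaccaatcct
Zscan4f promoter, chr7:11397824-11397903 (+): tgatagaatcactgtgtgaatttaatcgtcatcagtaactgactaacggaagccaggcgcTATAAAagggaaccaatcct
TATAAA on either strand stood in a promoter of 7 of the 10 genes found for the list (70%). It stood in 4473 of all 32851 promoters (13.6%). The 7 were Zscan4b, Zscan4c, Zscan4d, Zscan4f, Usp17lb, Usp17lc and Usp17ld. As near copies they are not independent promoters, so the shares cannot be compared as such. The log2 fold changes of Zscan4b, Zscan4c and Zscan4f were -2.33 ± 0.21, -2.35 ± 0.13 and -2.32 ± 0.16, close to that of Zscan4d.

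Of 17 germline genes 8 were lower in alphaKO and 0 were higher. Stra8, the retinoic acid-induced gate to meiosis, measured 394, 389 and 361 CPM in alphaKO, against 606, 615 and 650 CPM in fullKO and 330, 308 and 317 CPM in WT. The groups did not overlap, and the log2 fold change was -0.71 ± 0.043 (adjusted p = 8.83e-18). Stra8 was thus lower in alphaKO, whereas Crabp2 and Cyp26b1 were higher. The germ cell RNA-binding gene Dazl (-1.36 ± 0.13), the meiotic gene Hormad1 (-1.02 ± 0.22) and Tex19.1 (-0.87 ± 0.095) were lower too. All 11 DNA methylation genes were called, with 3 higher and 8 lower. Dnmt1, which maintains methylation, rose by 0.59 ± 0.036 (379, 393 and 390 CPM in alphaKO, against 254, 264 and 255 CPM in fullKO), whereas Dnmt3l, Tet1 (-0.49 ± 0.057) and Dnmt3a (-0.32 ± 0.049) fell.

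Of 11 hedgehog genes 6 were higher in alphaKO and 4 were lower. Gli1 and Ptch1 were among the falls, while the co-receptor genes rose. Gli1, a transcription factor whose level follows pathway activity, measured 32.1, 30.3 and 31.1 CPM in alphaKO, against 109, 102 and 94.1 CPM in fullKO and 23.8, 18.8 and 25.7 CPM in WT. Ptch1, the receptor that hedgehog signalling induces against itself, measured 306, 298 and 295 CPM in alphaKO, against 941, 893 and 867 CPM in fullKO and 199, 168 and 195 CPM in WT. For both genes fullKO stood far above the other groups, with log2 fold changes of -1.71 ± 0.087 (adjusted p = 2.92e-20) and -1.59 ± 0.054 (adjusted p = 1.06e-26). On the ligand-binding side Gas1, Boc (0.95 ± 0.12) and Cdon (0.60 ± 0.052) were higher, as were Gli3 (0.59 ± 0.052), the signal transducer Smo (0.25 ± 0.063) and Hhip (0.35 ± 0.07), an inhibitor that the pathway also induces. The ligand gene Shh did not pass the test, at 1.71, 1.62 and 1.40 CPM in alphaKO, against 1.57, 1.28 and 1.21 CPM in fullKO.

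Primitive endoderm genes were higher in alphaKO for 13 of 20 members and lower for 1, with a median of 0.73. The list's median was already 0.775 on day 0 and was 0.376 on day 4. Over the 18 members left on day 0 without Afp and Ttr, which were at 0 in a group, it was 1.069. In the test of day 2 minus day 0, 9 members were lower and 3 higher. In day 4 minus day 2, 10 were lower and 0 higher. Lama1, a laminin chain of the basement membrane that endoderm lays down, measured 501, 526 and 552 CPM in alphaKO, against 169, 199 and 177 CPM in fullKO and 207, 200 and 215 CPM in WT. Here alphaKO stood apart from both other groups, at 1.54 ± 0.073 above fullKO (adjusted p = 2e-21). The endocytic receptor gene Cubn (1.06 ± 0.09), the factor Sox17 (1.051 ± 0.13) and the collagen gene Col4a2 (1.01 ± 0.083) rose as well, and so did Gata4 (0.95 ± 0.092) and Gata6 (0.63 ± 0.089). Foxa2 was the member that fell (-0.90 ± 0.097). Sox17 and Lamc1 are on chromosome 1 and Gata4 is on chromosome 14. The list's median was 0.61 without genes on chromosomes 1, 14 and Y.

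Fibroblast genes were higher in alphaKO for 9 of 15 members, 7 of them by at least 2-fold, and lower for 0. Col1a2, a chain of type I collagen, measured 78.1, 88.2 and 99.6 CPM in alphaKO, against 29.1, 23.7 and 25.2 CPM in fullKO and 188, 228 and 210 CPM in WT. The list summed to 379 to 452 CPM in alphaKO, 233 to 247 CPM in fullKO and 960 to 1028 CPM in WT, and its median was 1.99 on day 0, 0.65 on day 2 and 0.20 on day 4. Embryonic stem cells are often grown on fibroblast feeders, and the part of such cells in these values was not tested. Mesenchymal genes were higher for 7 of 13 members, led by Cdh11 (1.17 ± 0.16), Cdh2 (1.13 ± 0.059) and Tgfb2 (1.10 ± 0.095), with Snai1 lower (-0.84 ± 0.12). Of 14 cardiac and smooth muscle genes 8 were higher and 0 lower. Acta2, smooth muscle actin, measured 51.3, 46.3 and 82.6 CPM in alphaKO, against 26.7, 20.2 and 24.6 CPM in fullKO and 346, 337 and 295 CPM in WT. The medians of the fibroblast, mesenchymal and muscle lists were 0.65, 0.43 and 0.43 on day 2, but 0.20, 0.205 and -0.605 on day 4. The Lox and Tnc group above was picked for its rise in the same contrast, so its direction is no separate observation.

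Neural genes did not move one way. Of 15 neural progenitor genes 5 were higher and 4 lower, and of 19 proneural and neuron genes 4 were higher and 7 lower. Nes, the intermediate filament of neural progenitors, measured 188, 187 and 181 CPM in alphaKO, against 85.0, 80.7 and 84.2 CPM in fullKO, and averaged 288 CPM in WT. Msx1 (1.13 ± 0.065), Sox11 (0.82 ± 0.075) and Sox1 (0.59 ± 0.08) were higher. The progenitor gene Nkx6-1 was lower, with log2 fold changes of -1.04 to -0.70 under other scalings, filters and sets of libraries. Its call was lost without alphaKO replicate 2. The growth cone protein gene Gap43 (1.54 ± 0.078) and Lhx1 (1.27 ± 0.14) were higher, whereas the motor neuron factor Isl1 was lower (-1.40 ± 0.28), at 0.97, 1.24 and 1.62 CPM in alphaKO, against 3.75, 3.19 and 3.26 CPM in fullKO. The neuronal tubulin gene Tubb3 was lower too (-0.49 ± 0.077). Pax6 did not pass the test and measured 17.8, 19.7 and 16.9 CPM in alphaKO, against 17.1, 20.2 and 18.8 CPM in fullKO.

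Signalling genes that early embryonic cells use were lower in alphaKO for several ligands. Of 17 Nodal and BMP genes 6 were lower and 2 higher. Nodal measured 104, 109 and 114 CPM in alphaKO, against 167, 160 and 157 CPM in fullKO, and its feedback inhibitors Lefty1 (-1.16 ± 0.08) and Lefty2 (-0.65 ± 0.054) fell with it. Of 19 FGF and ERK genes 8 were lower, among them the ligands Fgf15 (-1.66 ± 0.22), Fgf17 (-1.47 ± 0.21) and Fgf4 (-0.89 ± 0.095), and 3 were higher, the receptor genes Fgfr1 (0.51 ± 0.043) and Fgfr2 (0.31 ± 0.071) and the FGF inhibitor Il17rd (0.17 ± 0.043). Among 22 Wnt ligand and receptor genes 9 were higher, of which 8 were Fzd receptor genes, led by Fzd5 (0.50 ± 0.053) and Fzd10 (0.50 ± 0.082). Of the 9, 0 reached 2-fold, whereas 2 genes were lower by at least 2-fold, among them the ligand Wnt8a (-1.17 ± 0.2). The cytokine receptor genes Lifr (0.86 ± 0.076) and Il6st (0.34 ± 0.046), which keep stem cells pluripotent under LIF, were higher, whereas the STAT3 target Pim1 was lower (-0.70 ± 0.052). Of 14 Notch genes 4 were lower and 0 higher, led by the ligands Jag2 (-0.60 ± 0.085) and Dll1 (-0.53 ± 0.12) among members above 10 CPM.

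Differences in metabolism and the cell cycle were smaller. Of 20 cholesterol synthesis genes 14 were higher in alphaKO and 0 lower, with a median of 0.24. Hmgcs1, an early enzyme of the pathway, measured 504, 525 and 499 CPM in alphaKO, against 402, 424 and 434 CPM in fullKO, and Msmo1 and Sc5d were higher by 0.34 ± 0.041 and 0.40 ± 0.05. Of 20 genes of G1 and S phase 9 were lower and 0 higher, and of 19 genes of G2 and mitosis 12 were lower and 0 higher. No called member of either list changed 2-fold. The helicase subunit Mcm6 had the largest change (-0.48 ± 0.038), but lies at 128331590 to 128359664 on chromosome 1, within the stretch of lower genes. The mitotic genes Ube2c and Aurka fell by 0.39 and 0.38 on the log2 scale. The glycolytic enzyme Pfkp fell by 0.93, while 12 of the 19 genes of glycolysis and glucose transport did not pass the test.

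Chromatin genes changed little, with exceptions. Of 26 other histone chaperones 4 were higher and 4 lower, none of them by more than 0.20 on the log2 scale, Dnajc9 having the largest value. Of 11 histone variants Cenpa, the centromeric H3, had the largest change (-0.27 ± 0.048). Among 20 Polycomb genes 2 were higher and 5 lower. Rnf2, the ubiquitin ligase of Polycomb complex 1, measured 394, 388 and 388 CPM in alphaKO, against 148, 143 and 154 CPM in fullKO and 172, 180 and 175 CPM in WT. It was higher in alphaKO by 1.39 ± 0.045 (adjusted p = 1.92e-27) and lies on chromosome 1, whereas Cbx7, a reader subunit, was lower (-0.60 ± 0.046). Of 28 imprinted genes 12 were higher and 7 lower. Dlk1, a paternally expressed Notch-like ligand, measured 82.5, 87.1 and 83.3 CPM in alphaKO, against 27.5, 25.1 and 23.95 CPM in fullKO, and averaged 36.04 CPM in WT (1.72 ± 0.084). Mest, another paternally expressed gene, was lower at 4.68, 3.29 and 4.15 CPM in alphaKO, against 8.76, 6.97 and 8.79 CPM in fullKO, and averaged 78.0 CPM in WT.

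The differences were spread unevenly over the chromosomes. On chromosome 1, 285 of 1115 genes were higher in alphaKO (25.6%), and on chromosome 14, 169 of 615 (27.5%). In windows of 10000000 bases, counting genes of at least 5 CPM, 11 of 12 genes from 110000001 to 120000000 on chromosome 1 were lower, with a median of -0.42, as were 15 of 17 in the next window, with a median of -0.46. Tfcp2l1 and Gli2 lie in the first of these windows. From 130000001 to the chromosome's end the medians of the 7 windows ran from 0.20 to 0.84. They hold Rnf2, Lamc1, Tgfb2, Hsd17b7 and Atf3, which were higher, and Nr5a2, Lefty1 and Lefty2, which were lower. In every window of chromosome 1 up to 110000000 both knockouts lay above WT. The medians there were 0.37 to 0.71 for alphaKO over WT and 0.35 to 0.78 for fullKO over WT. In the first window of lower genes the medians were 1.01 for alphaKO over WT and 1.44 for fullKO over WT. In the window from 140000001 they were 0.67 for alphaKO over WT and -0.07 for fullKO over WT. The medians of alphaKO over fullKO in the windows from 110000001 on had the same signs on days 0 and 4. Without genes on chromosomes 1, 14 and Y, 3991 genes were called. Of 7 genes tested on chromosome Y 4 were lower in alphaKO, and Ddx3y measured 2.40, 1.89 and 3.45 CPM in alphaKO, against 31.7, 27.6 and 33.2 CPM in fullKO, with a WT mean of 55.0 CPM. The part of these chromosome-wide differences in results for single genes was not tested. Mitochondrially encoded protein genes were higher in alphaKO for 5 of 7 members tested, and mitochondrial genes took 1.95% to 2.04% of counts in alphaKO, against 1.66% to 1.85% in fullKO.

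Genes that WT cells changed during the first 2 days leaned in a direction. Of 3680 genes that were called and rose at least 2-fold in WT by day 2, 851 were higher in alphaKO than in fullKO (23.1%) and 373 were lower (10.1%). Of 2528 that fell at least 2-fold in WT, 135 were higher in alphaKO (5.34%) and 636 were lower (25.2%). The median log2 fold changes were 0.11 for the first set and -0.16 for the second. Among genes that rose at least 4-fold in WT, 21.6% were higher in alphaKO and 13% lower. Among those that fell at least 4-fold, 4.68% were higher and 25.7% lower. Over all 18412 genes the WT change and the contrast correlated only weakly (Pearson 0.1, Spearman 0.187).

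The difference between the knockouts was not the same on the other days. Of the 2396 genes higher at day 2, 1071 were also called higher at day 0 (44.7%) and 175 were called lower there (7.3%). Over all genes tested the day 0 contrast called 14.4% higher and 14.6% lower. At day 4, 1173 of the 2396 were called higher (49%) and 243 lower (10.1%), where 17.4% of all genes were called higher and 15.4% lower. These contrasts use separate libraries of the same cells. A test of the difference itself, the day 2 contrast minus the day 0 contrast, called 1460 genes higher (7.93%) and 1584 lower (8.6%). With upper-quartile scaling it called 1062 higher and 1850 lower, so the share higher was 36.5% instead of 48%. Without fullKO day 0 replicate 1 it called 825 higher. The day 4 contrast minus the day 2 contrast called 1493 higher (8.11%) and 1549 lower (8.41%).

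Crabp2 averaged 313.5 CPM in alphaKO and 58.3 CPM in fullKO at day 2, and 78.7 CPM in alphaKO and 36.3 CPM in fullKO at day 4. Its difference grew by 1.66 ± 0.22 between days 0 and 2 (adjusted p = 2.32e-07) and shrank by day 4 (-1.31 ± 0.081, adjusted p = 2.04e-16). Of the 16 naive pluripotency genes 12 were lower in the test of day 2 minus day 0, and Nanog (-0.83 ± 0.071) and Esrrb (-0.97 ± 0.062) opened their gap mainly after day 0. Gli1 averaged 31.2 CPM in alphaKO and 102 CPM in fullKO at day 2, and 68.4 CPM in alphaKO and 55.4 CPM in fullKO at day 4, so its order turned round by day 4 (day 4 minus day 2, 2.01 ± 0.12, adjusted p = 1.79e-16). Of the 20 cholesterol synthesis genes 14 were higher in the test of day 2 minus day 0, and their median was -0.16, 0.24 and 0.41 on days 0, 2 and 4. Fibroblast genes went the other way, with 9 of 15 lower in day 2 minus day 0. For the 2-cell-like genes the smallest adjusted p in that test was 0.344, for Zscan4a, and their medians were -2.56, -2.35 and -1.70 on days 0, 2 and 4. Of 19 genes of G2 and mitosis 15 were higher in day 4 minus day 2, and their median turned to 0.14 on day 4.

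**Figure D4:**
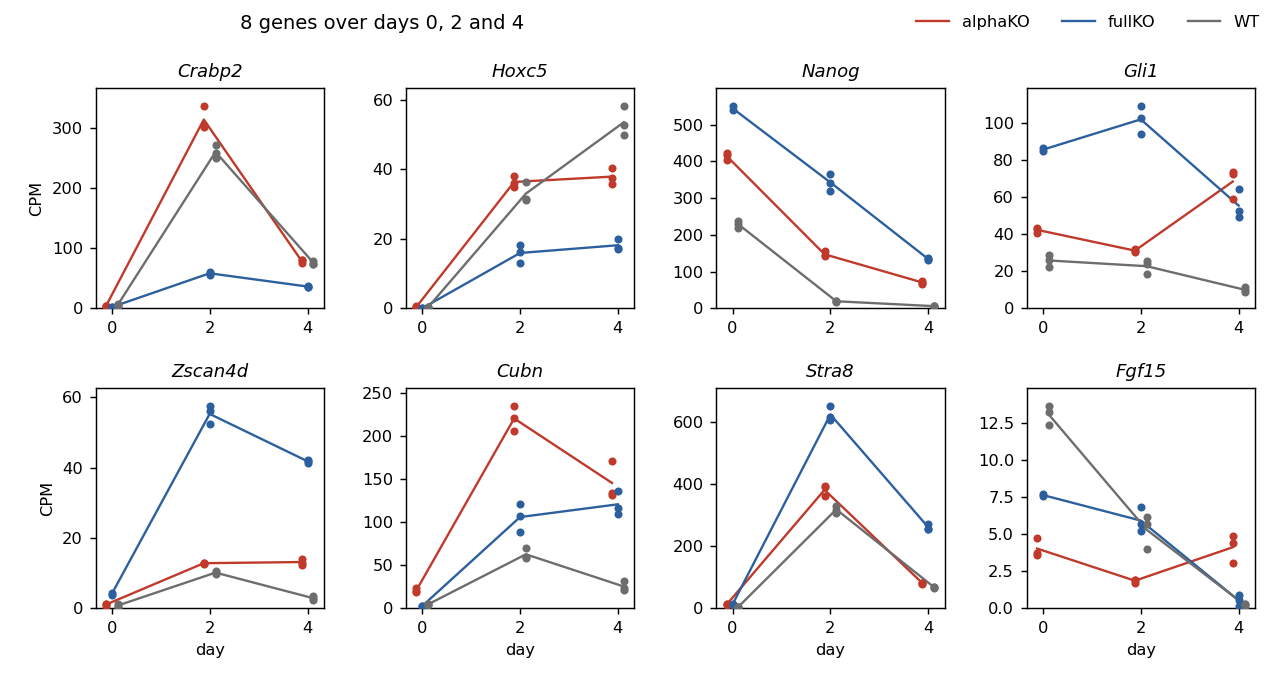
CPM of 8 genes on days 0, 2 and 4 in alphaKO, fullKO and WT; points are libraries, 3 a group and 2 for fullKO on day 0, and lines join the group means. Crabp2 peaked on day 2 in all 3 genotypes and reached 58.3 CPM in fullKO, and the Gli1 lines of the knockouts crossed between days 2 and 4.

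The study's title concerns transcriptional variability, and the spread between libraries of a group was therefore also measured. After all libraries were thinned to 13537267 counts, the biological coefficient of variation was 0.0325 in alphaKO, 0.0437 in fullKO and 0.0479 in WT at day 2. With 3 libraries a group these values are given without a test, and they describe libraries rather than single cells.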

How the data were processed

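The authors deposited whole-number read counts per gene and library, with no normalization. Per the labels' protocols, RNA was extracted with the RNeasy Mini Kit and libraries were made with the KAPA Stranded mRNA-Seq kit. FastQC, STAR 2.7.1a and the mm10 build are named per the submitters' processing notes. How reads were counted, with which strand setting and annotation, is not given in the sources used here. Overlapping, antisense and near-identical genes may therefore share reads. Of 55471 gene IDs, 55230 matched GENCODE M21 (GRCm38) without version and 241 did not.

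The counts were fitted with edgeR 4.0.16 in R 4.3.3 over all 26 libraries, with filterByExpr, TMM scaling and a mean for each of 9 groups (17 residual degrees of freedom; the common BCV, the coefficient of variation between libraries, was 0.0495). P-values were adjusted by Benjamini-Hochberg over the 18412 genes tested. The code was checked on simulated counts. DESeq2 1.42.0, other scalings, filters, sets of libraries and a test against a 1.2-fold change were alternatives. Named genes are Nap1l1 and its relatives, the 12 largest rises and falls with at least 5 CPM in a group whose libraries do not overlap (predicted genes and annotated pseudogenes left out), up to 4 called members of each list with at least 1 CPM, and 6 each way for differences between days. Other members named were chosen after their values were seen. The comparison, the members and the lists were chosen with earlier results of these data known. Figures were drawn with matplotlib 3.10.9, and sequences come from RefSeq promoters (GRCm38.p6). Results for some genes are not reported here.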

Additional observations from a re-analysis of the deposited data

Results flagged for a closer look

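The contrast of alphaKO over fullKO differed between days in edgeR's test of the difference between contrasts with Benjamini-Hochberg adjustment. For day 2 minus day 0 it called 1460 genes higher and 1584 lower, and for day 4 minus day 2 it called 1493 higher and 1549 lower. The values below are these differences on the log2 scale for the genes flagged by that test.

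From day 0 to day 2 the difference moved towards alphaKO for Chrna3 (4.04), a nicotinic receptor subunit gene, for Pga5 (3.22), Crygc (2.66) and Sp8 (2.44), and for the RNAs n-R5-8s1 (3.52) and Rn7sk (2.47). The last 2 are not polyadenylated, and in fullKO day 0 replicate 2 they stood at 12.2 and 16.1 CPM. The call of Pga5 at day 2 itself was lost without alphaKO replicate 2 (adjusted p = 0.19). The difference moved towards fullKO for the early mesoderm genes Tcf15 (-2.09) and Eomes (-2.10), for Egr1 (-2.65), Aldh3b2 (-4.23) and Tnfrsf11b (-4.67), and for Hoxb5 (-5.13), Hoxb2 (-5.19), Lhx1 (-5.23), Nkx6-1 (-5.34) and Dkk1 (-7.03). For the last 5 both fullKO day 0 libraries were at 0, so the fitted value depends on the prior count and is no bound.

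From day 2 to day 4 the difference moved towards alphaKO for Neurog1 (5.86), Nhlh2 (5.61), Robo3 (4.40) and Dcc (3.34), genes of early neurons and their axons. It also moved towards alphaKO for the FGF ligand gene Fgf15 (4.55) and for Miat (3.60). Neurog1 averaged 0.44 CPM in alphaKO and 1.22 CPM in fullKO at day 2, and 7.56 CPM in alphaKO and 0.35 CPM in fullKO at day 4. The difference moved towards fullKO for the muscle and matrix genes Acta2 (-1.95), Acta1 (-1.96), Adamts12 (-2.11), Postn (-2.25), Ankrd1 (-2.34), Filip1 (-2.36), Mybpc3 (-2.41) and Tnnt2 (-3.07), and for Stmn4 (-2.99).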

How the results depend on the processing

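With edgeR's quasi-likelihood test and Benjamini-Hochberg adjustment, no named gene that was called at day 2 changed sign under the alternatives run. Among genes not called, Nap1l3 ran from -0.17 to 0.31, Nap1l5 from -0.20 to 0.05 and Tspyl3 from -0.18 to 0.22. When each day 2 library was left out in turn, 2046 to 2177 genes were higher in alphaKO and 1859 to 1940 were lower. DESeq2 called 4556 genes, of which 4498 were among the 4655 called by edgeR (96.6%). The test against a 1.2-fold change left 825 genes higher and 924 lower. With the replicate block over all 26 libraries 2361 genes were higher and 2203 lower, and with the replicate block over the 6 compared libraries 2784 and 2589. Deviations of same-numbered alphaKO and fullKO libraries correlated at 0.028, 0.053 and -0.014. Those of differently numbered libraries ran from -0.07 to 0.041. The labels do not say whether same-numbered libraries shared a culture or a preparation, and this was not tested.

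For the day 2 minus day 0 difference, 825 genes were higher without fullKO day 0 replicate 1, an alternative chosen after seeing the data, and leaving out single libraries gave 825 to 1425. The median of genes that rose in WT was 0.078 with upper-quartile scaling. The median of genes that fell in WT was -0.409 for falls of at least 4-fold, -0.193 with upper-quartile scaling, -0.147 without the low-count filter, and -0.173 to -0.156 when single libraries were left out. The spread between alphaKO libraries was 0.0327 on the counts as deposited. The median of the immediate-early list, 0.112, was -0.006 without alphaKO replicate 1 and 0.184 without alphaKO replicate 2. The cause of these shifts was not tested. With 3 libraries a group and at most 19843721 counts in each library compared, differences of genes near 1 CPM rest on few reads.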
